A study of Mus musculus with 8 samples.

Results

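Collagens are the triple-helical proteins of the extracellular matrix, and the 44 mouse genes that encode their chains were taken from an RNA-seq table of 41709 genes by their symbols (Col, a type number, a, a chain number). The tibialis anterior (TA) muscles came from 3-month-old male C57BL/6J mice. The *Uba1* siRNAs, a pool of 4 siRNA species against the ubiquitin-activating enzyme UBA1, were electroporated into 1 TA muscle of each mouse, and non-targeting (NT) siRNAs into the TA muscle of the other leg, which was therefore electroporated as well. Muscles were collected 7 days later, and each group had 4 muscles, called NT replicates 1 to 4 and *Uba1* replicates 1 to 4, where the same number marks the legs of the same mouse. All NT muscles were right and all *Uba1* muscles were left legs according to the sample titles, so leg and siRNA cannot be told apart. For *Uba1* replicates 2, 3 and 4, a treatment field of the labels names UBA2, UBA3 and UBA4, whereas the titles and descriptions name UBA1; the groups follow the descriptions. mRNA levels are TPM, a transcript abundance corrected for length that sums to 1000000 in each muscle. A level in whole muscle cannot separate fewer cells of a type from less RNA per cell.

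A collagen chain is recognised by repeats of glycine followed by a pair of other amino acids, and the chains wind in triplets into a helix that is secreted and processed outside the cell. Fibrillar collagens (types I, II, III, V, XI, XXIV and XXVII) build the load-bearing fibrils of the endomysium, perimysium and tendon. FACIT collagens (fibril-associated collagens with interrupted triple helices) sit on the fibril surface, type IV forms the sheet of the basement membrane around each myofiber and capillary, and type VI forms beaded filaments that link that sheet to the matrix. In muscle these chains are made mainly by fibroblast-like interstitial cells and tendon cells, with a smaller part from other cells.

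The repeat can be read in the genes themselves. The first coding exon of 54 bases that starts on a glycine codon is shown for a type I, a type III, a type V and a type XXIV chain, to show how the repeat is written in 4 types of fibrillar chain. Capitals mark the codon of the leading glycine of each repeat, with 2 further codons between them, of which 1 in *Col5a1* (ggc) also encodes glycine (GRCm39 with GENCODE M39, + strand, coding exons numbered from the 5′ end).
*Col1a2*, coding exon 8, chr6:4515481-4515534: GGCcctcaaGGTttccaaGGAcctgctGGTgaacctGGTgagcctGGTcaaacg
*Col3a1*, coding exon 6, chr1:45364520-45364573: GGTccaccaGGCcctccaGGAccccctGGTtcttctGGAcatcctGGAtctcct
*Col5a1*, coding exon 15, chr2:27855263-27855316: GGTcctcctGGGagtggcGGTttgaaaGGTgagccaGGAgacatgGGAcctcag
*Col24a1*, coding exon 4, chr3:145026422-145026475: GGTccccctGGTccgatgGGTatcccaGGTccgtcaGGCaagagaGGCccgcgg
Fibrillar genes held 21 to 33 coding exons of this length, but so did the FACIT gene *Col22a1* with 28, while *Col9a1*, *Col9a2* and *Col9a3* held 14, *Col19a1* 15, *Col16a1* 12 and *Col12a1* 4. Genes of type IV held 1 to 3, those of type VI 2 to 3, and *Col8a1* and *Col8a2* 0. The uninterrupted repeat was 338 triplets long in *Col1a1* and 339 in *Col1a2*, but 216 in *Col24a1* and 217 in *Col27a1*. Among the FACIT genes, 62.8% of the codons of *Col16a1* and 8.19% of those of *Col12a1* lay in the repeat, the rest of *Col12a1* coding for non-collagenous parts.

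Promoter windows of 300 bases (250 before and 50 after the transcription start) from RefSeq on GRCm38.p6 matched 35 of the 44 genes. They were searched on both strands for CCAAT, the box read by the factor NF-Y, for TATAAA and for GGGCGG, the GC box. Each motif was counted on its own, so matches may share bases. CCAAT was found in 13 of the 35 genes, against 37.4% of all 32851 windows, TATAAA in 5, against 13.6%, and GGGCGG in 22, against 35.7%. Windows are shown for *Col1a2* and *Col16a1*, whose mRNAs were higher in the *Uba1* muscles of 4 of 4 mice, and for *Col4a2*, whose mRNA was not, with CCAAT or its reverse complement in capitals.
*Col1a2*, chr6:4505368-4505667, + strand: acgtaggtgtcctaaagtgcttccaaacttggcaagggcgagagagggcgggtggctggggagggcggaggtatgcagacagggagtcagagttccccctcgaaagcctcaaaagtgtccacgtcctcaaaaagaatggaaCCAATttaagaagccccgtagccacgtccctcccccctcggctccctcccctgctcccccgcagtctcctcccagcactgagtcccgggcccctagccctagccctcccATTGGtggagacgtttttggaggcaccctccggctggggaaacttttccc
*Col16a1*, chr4:130047590-130047889, + strand: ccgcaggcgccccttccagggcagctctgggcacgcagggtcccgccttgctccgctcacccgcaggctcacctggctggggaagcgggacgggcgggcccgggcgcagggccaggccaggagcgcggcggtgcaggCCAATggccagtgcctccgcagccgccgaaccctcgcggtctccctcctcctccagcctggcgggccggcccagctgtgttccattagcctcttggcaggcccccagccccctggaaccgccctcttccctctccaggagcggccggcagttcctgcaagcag
*Col4a2*, chr8:11312555-11312854, + strand: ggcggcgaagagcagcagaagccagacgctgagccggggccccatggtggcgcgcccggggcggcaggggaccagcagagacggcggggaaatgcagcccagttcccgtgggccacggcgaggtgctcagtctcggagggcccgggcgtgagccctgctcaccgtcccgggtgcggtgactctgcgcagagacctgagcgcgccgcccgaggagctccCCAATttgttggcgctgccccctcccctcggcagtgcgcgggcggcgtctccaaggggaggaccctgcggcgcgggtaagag
The windows of all 3 genes hold the box once or more, with the first base of the match on the + strand at -109, -113 and -32 from the start. *Col4a1* and *Col4a2* lie head to head on chromosome 8, with 20 bases between their starts, and their windows share 78 bases.

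The targeted gene was checked first. *Uba1* was at 60.6, 59.0, 63.6 and 59.1 TPM in the NT muscles and 18.1, 6.77, 15.8 and 23.1 TPM in the *Uba1* muscles, a log2 fold change (log2FC, *Uba1* minus NT siRNAs on log2(TPM + 1) throughout) of -1.98 with a standard error (SE) of 0.29, so every *Uba1* muscle was below every NT muscle. The adjusted p (limma, Benjamini-Hochberg over 11530 genes) was 0.0527, and 0.0278 with the replicate number as a block, which compares the legs within each mouse. Genes of the mitochondrial genome took 42.1% to 45.7% of the TPM in NT and 39.9% to 50.3% in *Uba1* muscles, and the median log2FC of all genes tested was 0.11, so a collagen with a log2FC near that value moved like the typical gene. Myofiber markers were abundant in every muscle (*Acta1*, skeletal actin, 28196 to 42479 TPM). Depth is not known from TPM, and the number of muscles limits the precision: the smallest p an exact permutation test of 4 against 4 muscles can give is 0.0286.

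Across the family, the largest differences between *Uba1* and NT siRNAs were those of *Col12a1* and *Col16a1* (FACIT), *Col8a2* (hexagonal network) and *Col11a1* (fibrillar), with log2FC values of 0.82 to 1.41. *Col1a1*, *Col7a1*, *Col1a2* and *Col24a1* followed with 0.47 to 0.57, and the genes of types IV, VI, XV and XVIII had values near 0. None of the 28 collagens tested (those that reached 1 TPM in 4 or more muscles) passed an adjusted p of 0.05 in limma, and 0.026% of all genes did. At an unadjusted p under 0.05, 8 of the 28 were higher and 0 lower, beside 16% of all genes that were higher and 1.98% that were lower. The cut-offs of the study for mRNAs, an unadjusted p under 0.05 with a log2FC over 0.58, applied here to the p of limma, were met by 4 collagens (*Col12a1*, *Col16a1*, *Col11a1* and *Col8a2*) and by 0.442% of all genes, and by 3 collagens with the Kruskal-Wallis test, with median-ratio scaling or with quantile normalization. A log2FC above 0 was found for 22 of 28, beside 81.8% of all genes, and with median-ratio scaling, which centres the typical gene at 0, for 15 of 28, beside 50.7%. The share above 0 was therefore near that of all genes. The 8 higher past p were 5 of 28 with median-ratio scaling (4.42% of all genes), with quantile normalization (4.45%) and without NT replicate 2 (10%), NT replicate 4 (15.9%) or *Uba1* replicate 4 (17.7%), and 4 of 18 among the genes with a mean of 5 TPM (15.8%). The median log2FC of the 28 tested collagens was 0.24 beside 0.11 for all genes, and it was below that of all genes when *Uba1* replicate 1, *Uba1* replicate 3 or NT replicate 4 was left out.

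**Figure D1:**
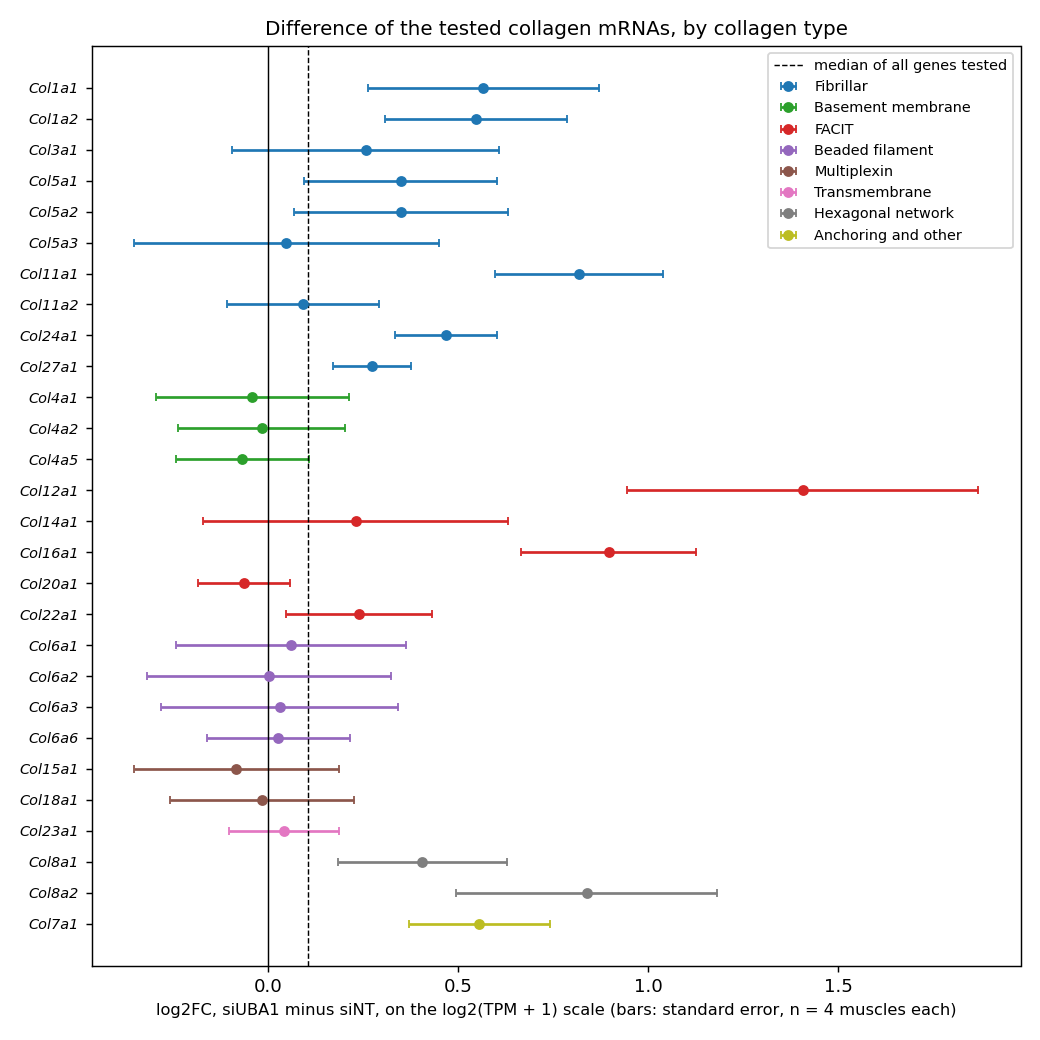
The log2FC of each of the 28 tested collagen genes is plotted as a point with its SE (4 muscles in each group), colored by collagen type, with a dashed line at the median of all genes tested. *Col12a1* lies farthest to the right at 1.41, and the genes of types IV, VI, XV and XVIII lie between -0.08 and 0.06.

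Within mice, 9 of 28 collagens were higher in the *Uba1* leg of 4 of 4 pairs, beside 32.2% of all genes, so that this direction was as frequent among collagens as elsewhere. The *Uba1* muscles lay above all NT muscles for 4 of 28 (*Col11a1*, *Col24a1*, *Col27a1* and *Col16a1*), beside 10.6%. With the replicate block, 0 of 28 collagens and 0.494% of all genes passed the adjusted p, and 12 of 28 were higher and 0 lower at an unadjusted p under 0.05, beside 22.4% and 2.8%; the block added *Col1a1*, *Col5a1*, *Col5a2* and *Col8a1* to those past the unadjusted p, and 9 passed it when median-ratio scaling was added, beside 6.96% of all genes that were higher. The differences varied between mice. The median difference of the 28 collagens was 0.16, -0.15, 0.34 and 0.26 in replicates 1 to 4, with 21, 13, 27 and 20 genes above 0, while the median of all genes tested was 0.19, 0.030, 0.15 and 0.044. The collagens thus lay below the typical gene in replicates 1 and 2 and above it in replicates 3 and 4, although the differences of *Col12a1*, *Col8a2* and *Col11a1* were largest in replicate 2.

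The sum of the 44 collagen mRNAs was 1253, 897, 1479 and 699 TPM in the NT muscles and 1541, 927, 1833 and 1029 TPM in the *Uba1* muscles. It was higher in the *Uba1* leg of every mouse, by ratios of 1.23, 1.03, 1.24 and 1.47, and the groups overlapped. *Col1a1*, *Col1a2* and *Col3a1* made up 57.7% of it, and the fibrillar genes 63.2% in NT and 68.0% in *Uba1* muscles. The FACIT sum was far smaller: it was 39.7, 19.4, 28.5 and 21.8 TPM with NT and 40.6, 40.4, 47.0 and 46.5 TPM with *Uba1* siRNAs. Its groups did not overlap, although the ratio in replicate 1 was only 1.02, and 10.6% of all genes tested had groups as separate in this direction. The sum includes *Col12a1* and *Col16a1*, which had the largest log2FC values of the family. Of the 5 tested FACIT genes, *Col16a1* was the only 1 whose groups did not overlap.

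**Figure D2:**
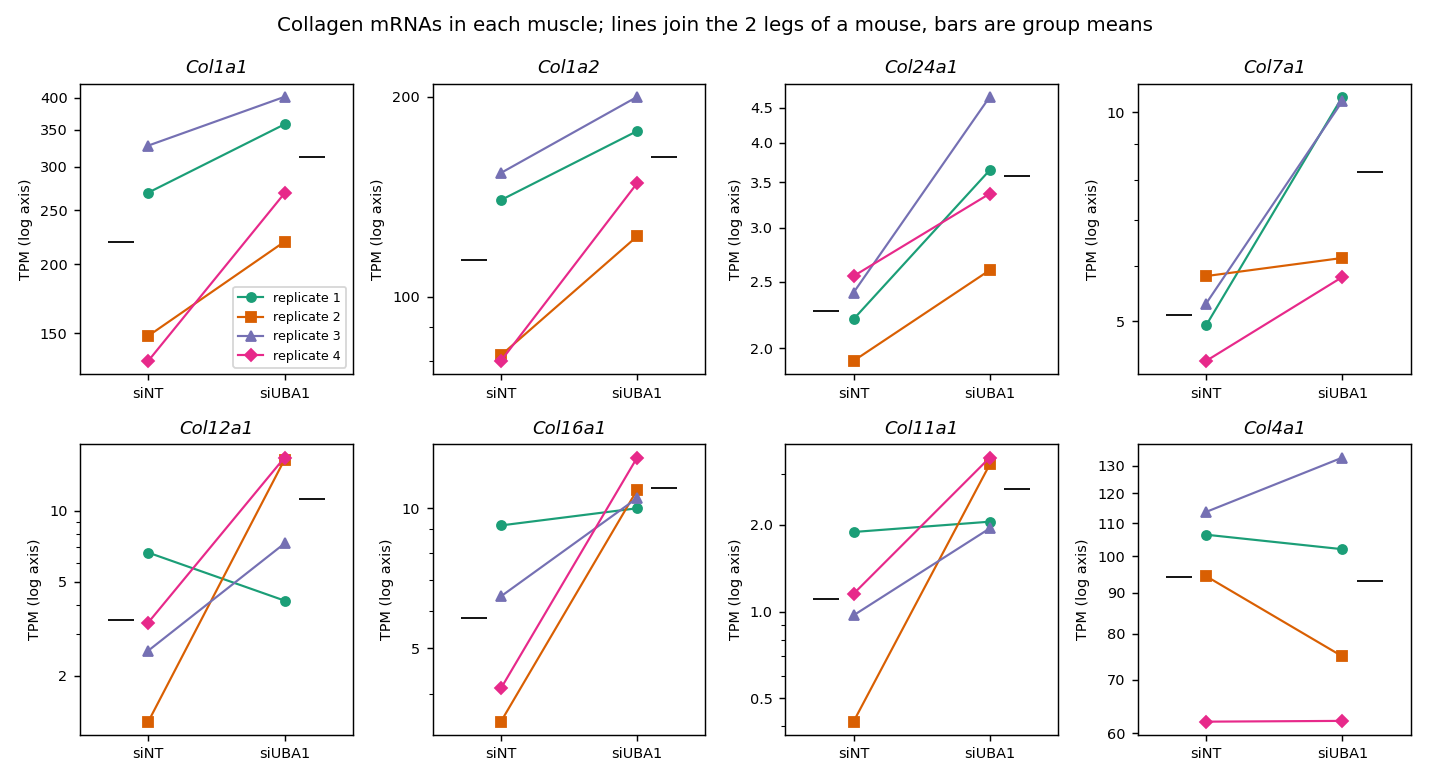
TPM (log axis) of 8 collagen mRNAs in each muscle, with a line from the NT to the *Uba1* leg of each mouse and short bars at the group means. *Col1a1* and *Col1a2* lines run upward in 4 mice, *Col12a1* and *Col11a1* lines are steep in replicates 2 and 4 and flat or downward in replicate 1, and *Col4a1* lines have no common direction.

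Type I collagen, the main protein of tendon and perimysial fibrils, is a heterotrimer of pro-α1(I), encoded by *Col1a1* (GRCm39 chr11:94827050-94843868, + strand), and pro-α2(I), encoded by *Col1a2* (chr6:4504814-4541555, + strand). *Col1a1* was at 269, 148, 328 and 134 TPM in the NT muscles and 358, 219.5, 401 and 269 TPM in the *Uba1* muscles. *Col1a2* was at 139.8, 81.6, 154 and 80.1 TPM in the NT muscles and 177, 123, 199.8 and 148 TPM in the *Uba1* muscles. Both were higher in the *Uba1* leg of each mouse, while replicates 1 and 3 were above replicates 2 and 4 in both legs, so the groups overlapped. The means were 219.7 ± 94.2 and 312 ± 82.7 TPM for *Col1a1* (SD, n = 4; log2FC 0.57, SE 0.30, limma adjusted p = 0.340) and 114 ± 38.4 and 162 ± 33.5 TPM for *Col1a2* (SD, n = 4; log2FC 0.55, SE 0.24, limma adjusted p = 0.271). Within mice the *Col1a2* differences were 0.34, 0.59, 0.38 and 0.88 on the log2 scale and the adjusted p with the replicate block was 0.0662; for *Col1a1* they were 0.41, 0.56, 0.29 and 1.00 and the adjusted p was 0.0795. Neither passed 0.05. An antisense gene shares 10.3% of the exonic bases of *Col1a2*, and the library kit did not keep the strand, so its reads cannot be told apart there. Overlapping genes share 5.86% of the exonic bases of *Col12a1*, 3.58% of *Col16a1*, 3.18% of *Col11a1*, 4.94% of *Col4a1* and 0% of *Col1a1*.

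Type III collagen, a homotrimer found with type I in pliable tissue, did not follow type I in all mice. *Col3a1* (chr1:45350698-45395840) was at 277, 221, 396 and 159 TPM in the NT muscles and 394, 185, 487 and 222 TPM in the *Uba1* muscles, with a log2FC of 0.26 (SE 0.35, limma adjusted p = 0.691). It was higher in 3 mice and lower in replicate 2, where the difference was -0.26.

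Type V chains join type I in the same fibril and set where it starts and how thick it grows. *Col5a1* was at 38.3, 28.5, 41.4 and 21.1 TPM in the NT muscles and 47.2, 29.7, 57.7 and 31.8 TPM in the *Uba1* muscles, and *Col5a2* at 26.7, 18.0, 30.5 and 14.4 TPM in the NT muscles and 35.2, 19.1, 39.5 and 21.9 TPM in the *Uba1* muscles. Each was higher in the *Uba1* leg of 4 of 4 mice, with the smallest difference in replicate 2, and the groups overlapped. Their log2FC was 0.35 (SE 0.25, limma adjusted p = 0.460) and 0.35 (SE 0.28, limma adjusted p = 0.501); with the block the adjusted p was 0.108 and 0.0987. The remaining chain, *Col5a3*, was at 29.1, 26.9, 35.5 and 12.9 TPM in the NT muscles and 35.0, 20.6, 45.0 and 12.7 TPM in the *Uba1* muscles, higher in 2 mice and lower in 2, with a log2FC of 0.049 and a 95% interval of -0.86 to 0.95.

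The minor fibrillar chains were low, and 3 of them had groups that did not overlap. *Col11a1*, an α1 chain of type XI that seeds fibrils in cartilage and developing tendon, was at 1.89, 0.416, 0.970 and 1.15 TPM in the NT muscles and 2.05, 3.23, 1.94 and 3.41 TPM in the *Uba1* muscles (log2FC 0.82, SE 0.22, limma adjusted p = 0.162). The NT muscle of replicate 1 was the highest of its group and close to the opposite leg. *Col24a1*, a chain related to those of invertebrate fibrils and known from developing bone, was at 2.20, 1.92, 2.41 and 2.55 TPM in the NT muscles and 3.65, 2.60, 4.67 and 3.37 TPM in the *Uba1* muscles (log2FC 0.47, SE 0.13, limma adjusted p = 0.169). Its differences were spread evenly over the mice, between 0.30 and 0.73. *Col27a1*, a relative of *Col24a1* known from cartilage, was at 0.969, 0.660, 1.02 and 0.598 TPM in the NT muscles and 1.10, 1.06, 1.27 and 1.28 TPM in the *Uba1* muscles (log2FC 0.27, SE 0.10, limma adjusted p = 0.223). For each of these 3 the exact permutation p was 0.0286 (two-sided, 4 against 4 muscles), the smallest it can give, and 10.6% of all genes had groups as separate in this direction. *Col11a2* ranged from 1.76 to 3.83 TPM with a log2FC of 0.092. *Col2a1*, the cartilage chain, ranged from 0.0506 to 0.308 TPM and was not tested.

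The largest log2FC of the family was that of a FACIT collagen. *Col12a1* (chr9:79506268-79626135), whose product coats type I fibrils in tendon, fascia and the muscle interstitium, was at 6.66, 1.28, 2.55 and 3.36 TPM in the NT muscles and 4.17, 16.5, 7.28 and 16.8 TPM in the *Uba1* muscles. *Uba1* replicates 2 and 4 stood at over 16 TPM, whereas in replicate 1 the NT leg was higher than the *Uba1* leg, so the groups overlapped. The ratio of the group means was 3.23, and the log2FC was 1.41 (SE 0.46, 95% interval 0.37 to 2.45, limma adjusted p = 0.187). Differences within mice were -0.57, 2.94, 1.22 and 2.03 in replicates 1 to 4.

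*Col16a1* (chr4:129941154-129993076), which joins fibrils and fibrillin microfibrils and binds integrins, was at 9.18, 3.48, 6.46 and 4.10 TPM in the NT muscles and 9.99, 10.9, 10.5 and 12.8 TPM in the *Uba1* muscles. All *Uba1* muscles lay within a narrow range above all NT muscles, and the NT muscle of replicate 1 was closest to them. The means were 5.81 ± 2.59 and 11.1 ± 1.24 TPM (SD, n = 4), a log2FC of 0.90 (SE 0.23, limma adjusted p = 0.154), the lowest adjusted p of the 28. With a pseudocount of 0.1, *Col11a1* (1.31) and *Col8a2* (1.30) lay above *Col16a1* (1.01). *Col14a1*, the relative of *Col12a1* found on the same fibrils, was at 11.6, 6.34, 11.1 and 4.62 TPM in the NT muscles and 14.7, 4.63, 16.8 and 6.54 TPM in the *Uba1* muscles, high in replicates 1 and 3 of both groups (log2FC 0.23). *Col22a1*, made at the myotendinous junction, ranged from 5.13 to 9.61 TPM (log2FC 0.24, limma adjusted p = 0.499), and *Col20a1* from 1.07 to 1.91 TPM (log2FC -0.063). The type IX genes *Col9a1*, *Col9a2* and *Col9a3*, of cartilage fibrils, and *Col19a1* were between 0.00921 and 1.10 TPM and were not tested.

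Type VIII collagen is a short chain that forms hexagonal lattices under endothelium and in the cornea. *Col8a2* was at 3.90, 0.446, 1.21 and 1.15 TPM in the NT muscles and 2.43, 4.96, 2.45 and 3.87 TPM in the *Uba1* muscles (log2FC 0.84, SE 0.34, limma adjusted p = 0.247). *Col8a1* was at 4.87, 1.73, 2.39 and 1.85 TPM in the NT muscles and 4.13, 3.07, 3.98 and 3.60 TPM in the *Uba1* muscles (log2FC 0.41, SE 0.22, limma adjusted p = 0.345). Both were higher in the *Uba1* leg of replicates 2, 3 and 4 and lower in that of replicate 1, where the NT muscle was the highest of its group. *Col10a1*, the chain of hypertrophic cartilage in the same class, did not exceed 0.108 TPM.

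*Col7a1*, the anchoring fibril chain under stratified epithelia, showed another order of mice. It was at 4.93, 5.81, 5.30 and 4.38 TPM in the NT muscles and 10.5, 6.17, 10.4 and 5.79 TPM in the *Uba1* muscles, so that *Uba1* replicates 1 and 3 were near 10 TPM and replicates 2 and 4 near their NT legs. The log2FC was 0.56 (SE 0.19, limma adjusted p = 0.193), and the exact permutation p was 0.0571 (two-sided).

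**Figure D3:**
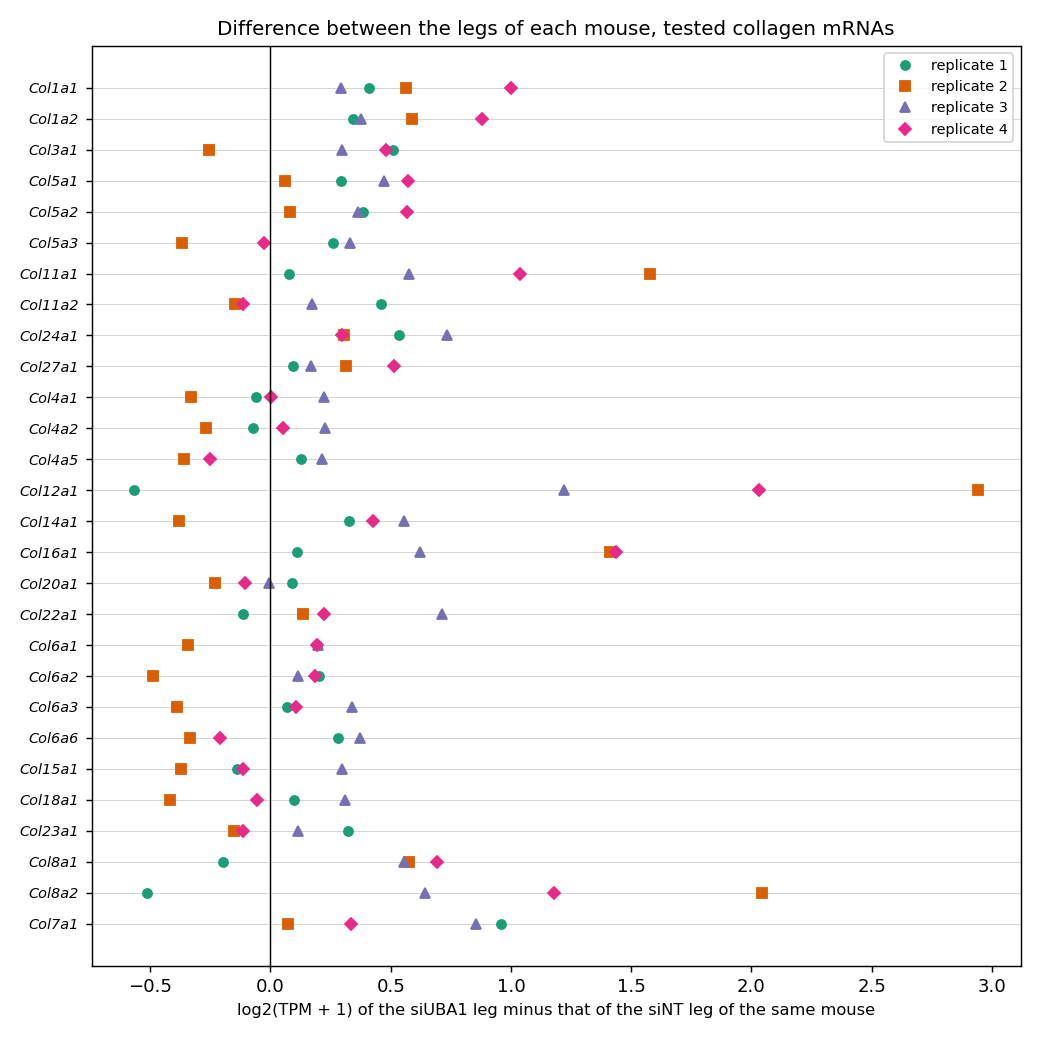
For each tested collagen gene the difference in log2(TPM + 1) between the *Uba1* and the NT leg is drawn for the 4 mice, one symbol per mouse. In *Col12a1*, *Col8a2* and *Col8a1* replicate 1 lies left of 0 and the others right of it, in *Col1a1* and *Col1a2* all 4 lie between 0.29 and 1.00, and in the genes of types IV, VI, XV and XVIII replicate 2 lies left of 0.

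The mice thus fell into different orders for different chains, and the differences of *Col12a1*, *Col16a1*, *Col11a1*, *Col8a1* and *Col8a2* were lowest in replicate 1. Without either muscle of replicate 1, an alternative chosen after the values were seen, and with the replicate block, 6 of 28 collagens passed an adjusted p of 0.05, all higher, beside 1.45% of all genes. They were *Col12a1* (log2FC 2.07), *Col16a1* (1.16), *Col8a1* (0.61), *Col1a2* (0.62), *Col11a1* (1.06) and *Col8a2* (1.29). Without replicate 1 but with no block, 0 passed. These counts rest on 3 mice, picked by their values, and only describe how much replicate 1 weighs.

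The log2FC of the basement membrane chains was near 0. *Col4a1* (chr8:11248423-11362826), of the α1α1α2(IV) network found in all basement membranes, was at 106, 94.4, 114 and 62.1 TPM in the NT muscles and 102, 74.9, 133 and 62.2 TPM in the *Uba1* muscles. Its partner *Col4a2* was at 84.0, 79.2, 86.7 and 50.9 TPM in the NT muscles and 79.9, 65.5, 102 and 52.7 TPM in the *Uba1* muscles. In both, replicate 3 was highest and replicate 4 lowest in each leg. Differences within mice were -0.060, -0.33, 0.22 and 0.0031 for *Col4a1* and -0.072, -0.27, 0.23 and 0.050 for *Col4a2* in replicates 1 to 4, with no common direction. The log2FC was -0.041 for *Col4a1* (95% interval -0.61 to 0.53) and -0.016 for *Col4a2* (95% interval -0.51 to 0.48). *Col4a5* ranged from 0.590 to 1.81 TPM (log2FC -0.067), and *Col4a3*, *Col4a4* and *Col4a6*, chains of kidney and other specialised membranes, were between 0.0425 and 0.801 TPM.

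The multiplexins *Col15a1* and *Col18a1*, which carry heparan or chondroitin sulfate chains and lie at the outer face of the basement membrane, resembled type IV. *Col15a1* was at 35.8, 28.1, 35.6 and 20.4 TPM in the NT muscles and 32.4, 21.5, 43.9 and 18.8 TPM in the *Uba1* muscles (log2FC -0.082, 95% interval -0.69 to 0.52), and was lower in the *Uba1* leg of 3 of 4 mice. *Col18a1*, the source of endostatin, ranged from 5.23 to 11.5 TPM (log2FC -0.016).

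Type VI, whose chains are mutated in Bethlem and Ullrich muscle disease, also had log2FC values near 0. *Col6a1* was at 87.3, 62.6, 99.7 and 49.9 TPM in the NT muscles and 100.1, 49.2, 114 and 57.3 TPM in the *Uba1* muscles, *Col6a2* at 48.0, 37.1, 59.3 and 26.7 TPM in the NT muscles and 55.2, 26.1, 64.3 and 30.5 TPM in the *Uba1* muscles, and *Col6a3* at 30.9, 21.8, 33.7 and 17.3 TPM in the NT muscles and 32.4, 16.4, 42.9 and 18.7 TPM in the *Uba1* muscles. Each was higher in the *Uba1* leg of 3 mice and lower in that of replicate 2, with log2FC values of 0.061, 0.0032 and 0.031. The 95% interval was -0.62 to 0.74 for *Col6a1*. All of the log2FC values of type VI were above 0 as deposited and all were below 0 with median-ratio scaling, so no direction can be given. *Col6a6* ranged from 2.29 to 4.98 TPM, while *Col6a4* and *Col6a5* did not exceed 0.987 TPM.

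By type, the median log2FC of the tested genes was 0.35 for the 10 fibrillar genes, 0.24 for 5 FACIT genes, 0.62 for 2 of the hexagonal network, 0.029 for 4 of beaded filaments, -0.041 for 3 of the basement membrane and -0.049 for 2 multiplexins. With median-ratio scaling, 8 of 10 fibrillar and 4 of 5 FACIT genes stayed above 0, against 0 of 9 for the last 3 types together. Above 0 were also 50.7% of all genes, and 15 of the 28 collagens, a share near that of all genes. The difference between types was not tested. Of the transmembrane chains only *Col23a1* was tested (log2FC 0.043); *Col13a1*, of the neuromuscular junction, *Col17a1* and *Col25a1*, which motor axons need to enter muscle, were between 0.0195 and 1.15 TPM. *Col26a1* and *Col28a1* were between 0.344 and 1.46 TPM. All 16 genes not tested lay between 0 and 1.46 TPM in every muscle.

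The ratios between the chains of types I, IV and VI varied little between muscles. The ratio of *Col1a1* to *Col1a2* TPM was 1.93, 1.82, 2.13 and 1.67 in the NT muscles and 2.02, 1.78, 2.01 and 1.81 in the *Uba1* muscles. The type I trimer holds 2 α1 chains and 1 α2 chain. *Col4a1* to *Col4a2* was between 1.14 and 1.31 in the 8 muscles, *Col6a1* to *Col6a2* between 1.68 and 1.88, and *Col6a1* to *Col6a3* between 2.67 and 3.09. In each of these the groups overlapped. The ratios of less abundant chains spread more. *Col11a1* to *Col11a2* was 0.766, 0.202, 0.295 and 0.506 in the NT and 0.545, 1.84, 0.507 and 1.68 in the *Uba1* muscles. *Col8a1* to *Col8a2* was 1.25, 3.88, 1.98 and 1.60 in the NT and 1.70, 0.619, 1.63 and 0.929 in the *Uba1* muscles. *Col9a1* to *Col9a2* ranged from 0.822 to 6.72. The groups overlapped in each of these as well.

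Ratios between types, chosen after the values were seen, were less constant. *Col4a1* to *Col1a1* was 0.395, 0.637, 0.347 and 0.464 with NT and 0.285, 0.341, 0.331 and 0.232 with *Uba1* siRNAs, lower in the *Uba1* leg of 4 of 4 mice with no overlap. *Col3a1* to *Col1a1* was 1.03, 1.49, 1.21 and 1.19 with NT and 1.10, 0.844, 1.21 and 0.825 with *Uba1* siRNAs, so *Uba1* replicates 2 and 4 had less type III than type I α1 mRNA, unlike all other muscles. *Col12a1* to *Col14a1* was 0.576, 0.201, 0.230 and 0.728 with NT and 0.282, 3.56, 0.434 and 2.58 with *Uba1* siRNAs: *Col12a1* was the more abundant of these FACIT mRNAs in *Uba1* replicates 2 and 4 alone.

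**Figure D4:**
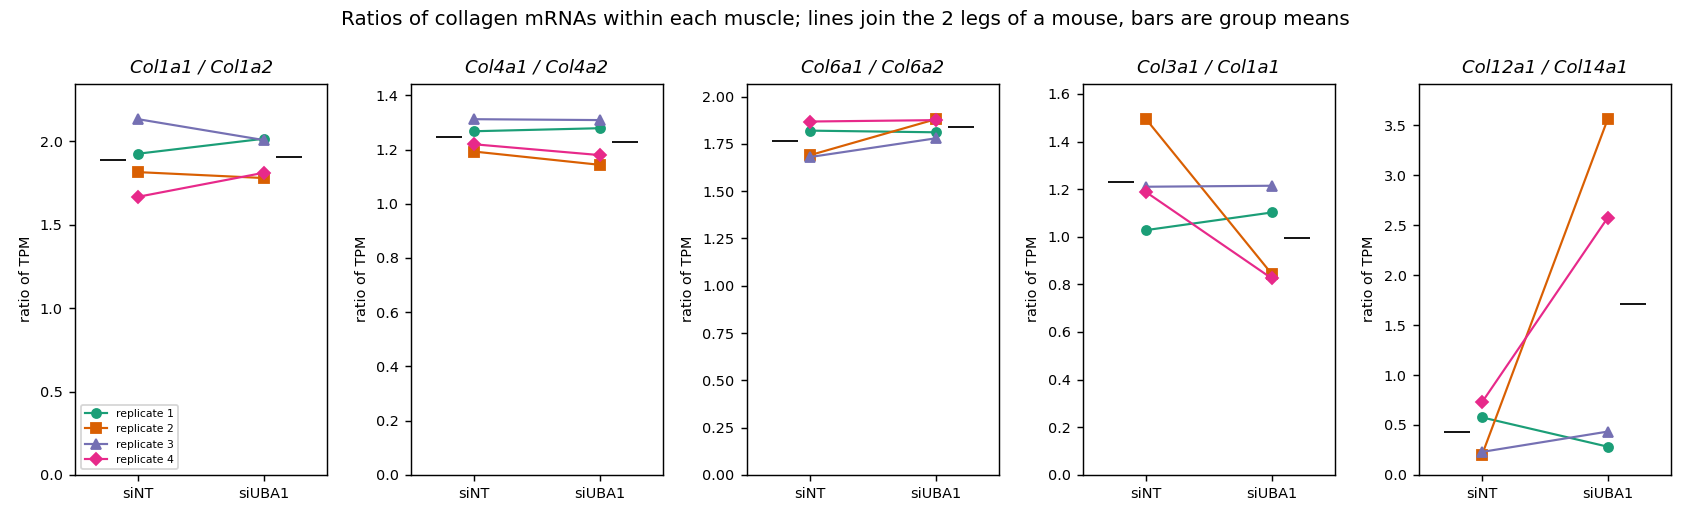
Ratios of TPM of a pair of collagen genes within each muscle, from 0, with a line for each mouse and short bars at the group means. The ratios within types I, IV and VI are flat across all muscles, *Col3a1* to *Col1a1* is lowest in *Uba1* replicates 2 and 4 (0.844 and 0.825), and *Col12a1* to *Col14a1* is highest there (3.56 and 2.58).

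Collagen chains pass through enzymes and chaperones before they form fibrils, and 60 genes in 6 lists were followed, of which 47 were tested. At an unadjusted p under 0.05, 8 were higher and 0 lower (16% of all genes were higher), and 0 passed the adjusted p in limma. With the replicate block, 24 of 47 were higher at an unadjusted p under 0.05, beside 22.4% of all genes, namely 8 of chain modification, 4 of folding and export, 1 of propeptide removal, 3 of cross-linking, 3 receptors and 5 of breakdown. The median log2FC was 0.20 for chain modification, 0.18 for folding and export, 0.15 for removal of propeptides, 0.29 for cross-linking, 0.12 for receptors and 0.35 for breakdown, beside 0.11 for all genes. Of 14 tested genes for hydroxylation and glycosylation of the chains, 4 were higher: *P4ha2* (log2FC 0.23) and *P4ha3* (0.47), prolyl 4-hydroxylase subunits, *P3h1* (0.26), a prolyl 3-hydroxylase, and *Colgalt1* (0.20), a galactosyltransferase. Of 11 tested genes of folding and export, *Mia3* (0.20), the receptor that loads procollagen into large vesicles, was higher, and the collagen chaperone *Serpinh1* had a log2FC of 0.14. Of 5 tested genes for removing propeptides and of 8 tested receptors, 0 passed without the block.

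Of 4 tested cross-linking enzymes, 1 was higher. *Lox*, the lysyl oxidase that joins the chains of type I fibrils, was at 6.32, 4.28, 6.88 and 5.09 TPM in the NT muscles and 9.36, 7.76, 9.34 and 8.65 TPM in the *Uba1* muscles, with every *Uba1* above every NT muscle (log2FC 0.57, SE 0.13, limma adjusted p = 0.137). Groups were as separate in this direction for 10.6% of all genes tested. With the replicate block the limma adjusted p of *Lox* was 0.0390, the single gene of the 47 that passed there, beside 0.494% of all genes. Of 5 tested collagen-degrading enzymes, 2 were higher. *Mmp13*, an interstitial collagenase, was at 8.52, 1.40, 5.85 and 4.12 TPM in the NT muscles and 9.13, 59.9, 19.5 and 58.1 TPM in the *Uba1* muscles, high in the same *Uba1* replicates 2 and 4 as *Col12a1* (log2FC 2.47, SE 0.61, limma adjusted p = 0.147). *Mmp9*, a gelatinase, ranged from 0.717 to 2.53 TPM (log2FC 0.44).

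Markers of other cells moved with some of the collagens. The summed TPM of 9 osteoblast markers, of which 5 were tested and 4 were higher at an unadjusted p under 0.05 (16% of all genes were), was 29.6, 17.9, 18.5 and 18.2 in the NT and 23.8, 80.3, 37.0 and 65.8 in the *Uba1* muscles. It was highest in *Uba1* replicates 2 and 4 and, among NT muscles, in replicate 1, the order also seen for *Col12a1*, and its part in the result was not tested. *Ibsp*, bone sialoprotein, was at 2.45, 0.468, 2.91 and 2.30 TPM in the NT muscles and 1.93, 19.8, 6.72 and 23.0 TPM in the *Uba1* muscles. *Spp1*, *Bglap* and *Bglap2* had log2FC values of 0.79, 1.22 and 1.78, the latter a pair of near-identical copies whose reads may be split. The factors that define osteoblasts, *Sp7* and *Runx2*, were low and below the filter for testing. *Sp7* was at 0.355, 0.190, 0.275 and 0.101 TPM in the NT muscles and 0.678, 0.979, 0.935 and 0.871 TPM in the *Uba1* muscles, and *Runx2* at 0.567, 0.343, 0.476 and 0.491 TPM in the NT muscles and 0.652, 0.782, 0.805 and 1.24 TPM in the *Uba1* muscles. Both were higher in the *Uba1* leg of 4 of 4 mice, replicate 1 included, with no overlap of the groups (beside 32.2% and 10.6% of all genes tested), and *Dmp1* and *Phex* did not exceed 0.390 TPM.

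**Figure D5:**
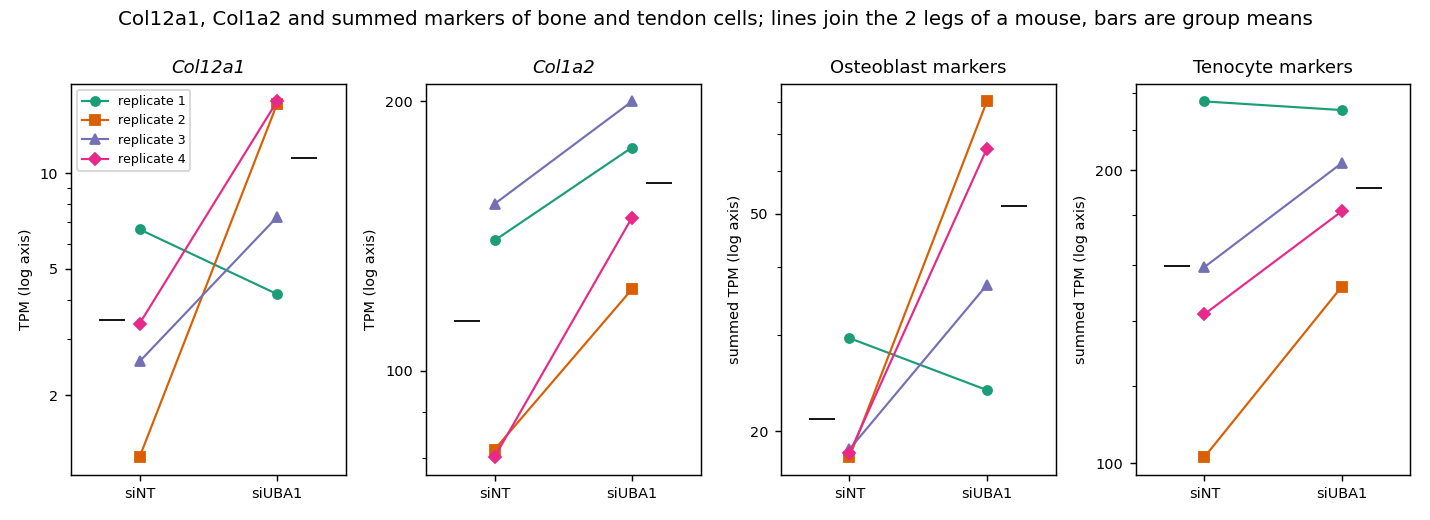
TPM of *Col12a1* and *Col1a2* and the summed TPM of osteoblast and tenocyte markers in each muscle (log axes), with a line for each mouse and short bars at the group means. The osteoblast sum and *Col12a1* both run downward in replicate 1 and upward in replicates 2, 3 and 4, while *Col1a2* runs upward in all 4.

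Tendon cell markers summed to 236, 102, 159 and 142 TPM with NT and 231, 152, 204 and 182 TPM with *Uba1* siRNAs, and 1 of 5 tested, *Scx*, the tendon transcription factor, was higher at an unadjusted p under 0.05 (log2FC 0.42), a share near the 16% of all genes. *Tnmd* ranged from 6.68 to 19.3 TPM and *Mkx* from 0.219 to 0.774 TPM. Fibro-adipogenic progenitor markers summed to 659 to 875 TPM with NT and 609.9 to 1009.9 TPM with *Uba1* siRNAs; 1 of 10 was higher, again near the 16% of all genes, *Lum*, lumican of the fibril surface (log2FC 0.49), and *Pdgfra* (3.58 to 9.48 TPM), *Ly6a* and *Dpt* did not pass. Chondrocyte markers summed to 5.34 to 13.5 and 8.45 to 13.2 TPM, with *Comp*, a gene that tendon also makes, at 2.00 to 11.1 TPM. *Acan*, the cartilage proteoglycan, was at 0.611, 0.0259, 0.233 and 0.0646 TPM in the NT muscles and 0.445, 0.642, 0.361 and 0.722 TPM in the *Uba1* muscles. Like *Col12a1*, it was lower in the *Uba1* leg of replicate 1 and higher in the others. *Comp* differed by -0.25, 1.86, -0.22 and 1.49 on the log2 scale in replicates 1 to 4. *Matn3* was at 0 to 0.135 TPM, *Matn1* was listed at 0 in every muscle, and *Sox9* was lower (log2FC -0.60). The part of these cells in the collagen values was not tested.

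Adipocyte markers summed to 96.8, 96.8, 103 and 116 TPM with NT and 90.3, 95.3, 132 and 127 TPM with *Uba1* siRNAs, most of it from *Plin4*, which was at 84.1, 80.9, 88.0 and 107 TPM in the NT muscles and 78.1, 93.7, 119.7 and 124 TPM in the *Uba1* muscles (log2FC 0.19). Of the 5 tested, 1 was lower at an unadjusted p under 0.05, *Cidec* (log2FC -0.83), beside 1.98% of all genes; *Adipoq*, adiponectin, was at 6.61, 8.70, 7.89 and 4.49 TPM in the NT muscles and 6.97, 0.741, 6.65 and 1.52 TPM in the *Uba1* muscles, and *Plin1* was likewise lowest in *Uba1* replicates 2 and 4. For myofibers (10 tested), endothelial cells (10), leukocytes (6), Schwann cells (5) and satellite cells with regenerating fibers (6), 0 genes passed an unadjusted p of 0.05. The myosin genes *Myh2* and *Myh1*, of fast oxidative and intermediate fibers, differed by -0.76, 1.34, 0.49 and 1.14 and by -0.35, 0.68, 0.54 and 0.50 in replicates 1 to 4, again lower in the *Uba1* leg of replicate 1 and higher in the others. Of the 10 myofiber markers, 7 had a log2FC below 0 and 3 above 0, with a median of -0.086. With the replicate block, *Pdgfra*, *Fmod*, *Thbs4*, *S100b*, *S100a8* and *Myod1* were also higher, and *Adipoq* and *Myh3* lower, at an unadjusted p under 0.05, beside 22.4% of all genes that were higher and 2.8% that were lower. Leukocyte sums were 164, 206, 335 and 112 TPM with NT and 250.2, 113, 369.7 and 128 TPM with *Uba1* siRNAs, highest in replicate 3 and lowest in replicate 4 or 2, as *Col3a1* and *Col6a1* were. Endothelial sums stayed between 171 and 252 TPM with NT and between 192 and 235 TPM with *Uba1* siRNAs. Schwann cell sums lay between 74.9 and 107 TPM with NT and 57.1 and 118 TPM with *Uba1* siRNAs, satellite cell and regenerating fiber sums between 50.1 and 91.6 TPM with NT and 35.2 and 95.8 TPM with *Uba1* siRNAs, and myofiber sums between 129552 and 140482 TPM with NT and 101084 and 142232 TPM with *Uba1* siRNAs, the lowest *Uba1* muscle of each being replicate 2 or 4. The part of these cells in the collagen values was not tested either. Over the lists, the median log2FC was 1.22 for osteoblast, 0.22 for tendon cell, 0.16 for progenitor, 0.06 for chondrocyte and -0.40 for adipocyte markers, and between -0.21 and 0.065 for the other lists, beside 0.11 for all genes.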

How the data were processed

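Total mRNA of 8 TA muscles was sequenced as 100-bp paired-end reads. Per the paper's methods, the authors removed low-quality reads (Phred under 20, under 50 bp), aligned the rest to GRCm39 (mm39) with CLC Genomics Workbench 20.0.4 and deposited TPM values for each gene. The annotation and the handling of reads that match several genes are not given in the sources used here. Depth is unknown from TPM. Groups and replicate numbers were taken from the sample descriptions.

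The values were transformed as log2(TPM + 1). Genes that reached 1 TPM in 4 or more of the 8 muscles were tested with limma 3.58.1 (R 4.3.3; lmFit and eBayes with a trend, all 8 muscles, no covariate), with Benjamini-Hochberg adjustment over all 11530 genes. Single values were compared by exact permutation tests, two-sided. Fold changes of low genes are understated on this scale. The script was tested on simulated data. Equal numbers pair the legs of a mouse per the paper and the sample titles; deviations from the group means correlated between the legs by -0.00037, 0.20, 0.58 and 0.54 in replicates 1 to 4 over all genes, and by -0.60, -0.48, 0.74 and 0.71 over the collagen genes. The replicate block was an alternative, as were a pseudocount of 0.1, no filter, a mean of 5 TPM, median-ratio scaling, quantile normalization, TPM without mitochondrial genes, the block with median-ratio scaling, the Kruskal-Wallis test of the study and leaving out each muscle. Leaving out both muscles of replicate 1 was added after seeing the data.

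Genes were named if their mean was 20 TPM or more, if the unadjusted p was under 0.05 or if they were among the 10 largest differences. The members, the 6 pathway lists and the 10 marker lists were chosen with earlier results of these data known; 1 marker is not reported here and was left out of its list. Sequences were read from GRCm39 with GENCODE M39 and from a RefSeq promoter table on GRCm38.p6.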

Additional observations from a re-analysis of the deposited data

Results flagged for a closer look

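Of 144 groups of 4 muscles (each described gene and each summed list in each siRNA group), 4 held a muscle far from the others by Dixon's criterion, where chance would give about 7.2, 1 in 20. *Mia3*, the export receptor of procollagen, was at 46.6 TPM in *Uba1* replicate 2 and at 44.4 to 44.7 TPM in the other *Uba1* muscles, a small gap. *Spp1* was at 23.6 TPM in *Uba1* replicate 2, with the nearest muscle at 9.14 TPM. *Bglap* was at 1.13 TPM in NT replicate 1, with the nearest at 0.446 TPM. The summed osteoblast markers were at 29.6 TPM in NT replicate 1, with the others between 17.9 and 18.5 TPM. None of the collagen genes described one by one had such a muscle in either group.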

How the results depend on the processing

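With 4 muscles in each group and a depth that TPM do not give, small differences cannot be resolved. The Kruskal-Wallis test placed 6 collagens, all higher, under an unadjusted p of 0.05, beside 17.5% of all genes that were higher, and limma 8, beside 16%. The count of 0 collagens past the adjusted p was also 0 under 18 of 19 alternatives and 6 with the replicate block and both muscles of replicate 1 left out, which was added after seeing the data. The 4 collagens past p and log2FC numbered 2 of 18 under the filter on a mean of 5 TPM, where fewer genes are tested. They numbered 7 with the replicate block without replicate 1, and 3 to 6 when each muscle was left out. Beside the 4, 0.442% of all genes passed both cut-offs, and this share is not given for the alternatives. Collagens above 0 were 14 of 18 with a mean of 5 TPM, beside 81.4% of all genes. When each muscle was left out they were 14 to 28 of 28, beside 72.6% to 87.8% of all genes. The median log2FC of collagens relative to all genes was 0.13, 0.016 with no filter on low values, and -0.078 to 0.21 when each muscle was left out, below 0 without *Uba1* replicate 3 (-0.078), without *Uba1* replicate 1 (-0.0016) and without NT replicate 4 (-0.044). *Uba1* passed the adjusted p at a log2FC of -1.98 with a mean of 5 TPM and with the replicate block, -2.09 with median-ratio scaling with and without the block, -2.06 with quantile normalization, -1.996 without mitochondrial genes and -2.07 with the replicate block without replicate 1, and it ranged from -2.18 to -1.64 when each muscle was left out. The sign turned for genes near 0. Under median-ratio scaling, with and without the block, and under quantile normalization, the log2FC was -0.069 and -0.027 for *Col5a3*, -0.060 and -0.0013 for *Col6a1*, -0.12 and -0.063 for *Col6a2*, and -0.087 and -0.047 for *Col6a3*. Without mitochondrial genes it was 0.0016 for *Col4a2*. Without replicate 1, with and without the block, it was -0.021 for *Col5a3*, 0.0026 for *Col4a2* and -0.062 for *Col6a2*. Leaving out each muscle gave -0.24 to 0.37 for *Col5a3*, -0.23 to 0.13 for *Col4a1*, -0.19 to 0.14 for *Col4a2*, -0.14 to 0.26 for *Col6a1*, -0.21 to 0.21 for *Col6a2*, -0.21 to 0.24 for *Col6a3* and -0.30 to 0.094 for *Col15a1*. The cause of these turns was not tested. *Col1a1*, *Col1a2*, *Col3a1*, *Col5a1*, *Col5a2*, *Col11a1*, *Col24a1*, *Col27a1*, *Col12a1*, *Col16a1*, *Col8a1*, *Col8a2* and *Col7a1* kept a log2FC above 0 under every alternative run for them. With all mice, the replicate block changed no call of a collagen gene at the adjusted p.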
